A study of Mus musculus with 14 samples.

Results

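Genes of protein entry into the endoplasmic reticulum (ER), N-glycosylation, folding in the ER lumen, ER-associated degradation and vesicle transport between ER and Golgi were described in mouse hippocampus. They were chosen by symbol, as the Sec, Ssr, Spcs, Stt3, Derl, Kdelr, Tmed and Cop families and single ER chaperones and enzymes, and 40 of the 7756 genes deposited were members. Hippocampal RNA was sequenced from male C57BL/6J mice of genotype WT aged 8 weeks when the 28 days of exposure began. The 5 mice of the intermittent hypoxia (IH) group were cycled from 10% to 21% oxygen and back (cycle length 2 min, daily exposure 8 h), the 5 mice of the sustained hypoxia (SH) group had 10% oxygen for 8 h a day, and the 4 control mice had 21% oxygen. Hippocampi were taken after a Y-maze and a passive avoidance test, which the methods do not state for the mice behind the control libraries. The control libraries came from a preliminary experiment, so hypoxia and experiment cannot be told apart in IH vs. control and SH vs. control, and the IH and SH libraries are not described as part of it.

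As background, secretory and membrane proteins enter the ER through the Sec61 translocon, lose their signal peptide to the signal peptidase and receive N-glycans from the oligosaccharyltransferase (OST). In the lumen, chaperones and disulfide isomerases fold them, and misfolded proteins are sent back to the cytosol for degradation. COPII-coated vesicles carry folded cargo to the Golgi, while COPI-coated vesicles and the KDEL receptors return escaped ER residents. When unfolded proteins accumulate, the unfolded protein response (UPR) raises transcription of many of these genes through factors such as ATF6 and XBP1.

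By role, the members were 10 genes of the translocon and signal peptidase, 3 OST subunits, 10 lumenal folding and oxidation genes, 2 genes of ER-associated degradation, 4 of the COPII coat and ER exit, and 11 of the COPI coat, the KDEL receptors and the p24 cargo receptors (Tmed genes). The deposited table had been selected by the authors for genes whose signal differed from the control group, so members of the same families such as Canx, Sel1l and Syvn1 were not analysed here, and shares of changed genes hold only within that selection. Of the members, 39 had a mean of at least 40 counts in every group and were tested, and Derl3 was below. The values given are normalized counts, counts divided by the library size after TMM scaling relative to its mean over the libraries. Library totals ran from 7203659 to 11777101 counts without separating the groups (exact permutation test, 2-sided, p = 0.206 for IH vs. control, p = 0.254 for SH vs. control and p = 0.944 for IH vs. SH). Hippocampal neuron markers were present in every library, with 18 of 20 listed markers deposited and a summed normalized count of 144455 to 184082. Among them Prox1, a marker of dentate granule cells, exceeded control without overlap in IH (by 0.66 on the log2 scale, adjusted p = 0.0169) as in SH (by 0.81, adjusted p = 0.00387), and Slc17a7, the vesicular glutamate transporter 1, was lower in SH (-0.26, adjusted p = 0.0215), with -0.23 in IH (adjusted p = 0.0542).

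Some libraries stood apart in tissue content. The summed normalized count of 18 choroid plexus markers was 128400 in control 4, 71647 in IH 1, 77937 in IH 4, 95256 in SH 1, 43069 in SH 2 and 32149 in SH 5, against 4575 to 12140 in the other 8 libraries. Each group held libraries of both kinds, and the count of members called in each comparison as a whole is given also with these markers as a covariate and without the 6 rich libraries. Of 7 microglia markers deposited, 4 were lower in SH than in control, against 10.5% of all genes tested. The sum of the 7 was 3779 to 4650 in SH and 5034 to 5636 in control. Of the markers of other cells deposited, 1 of 3 for astrocytes (Gjb6) and 1 of 10 for oligodendrocytes (Ermn) were called higher in both hypoxia groups. Among 11 endothelial and mural markers 0 were called in IH vs. control and 2 in SH vs. control, and 0 of 9 thalamus and striatum markers tested were called. Of all genes tested, 6.08% were higher and 4.85% lower in IH vs. control, and 10.2% and 10.5% in SH vs. control. In IH vs. SH the endothelial marker Slco1a4 was lower (-0.40, adjusted p = 0.00444) and the microglia marker C1qc higher (0.50, adjusted p = 0.0323). The oligodendrocyte markers had a positive log2 fold change in 10 of 10 in IH vs. control (median 0.39) and in 9 of 10 in SH vs. control (median 0.38), with a sum of 78715 to 115022 in control, 90834 to 114891 in IH apart from IH 5 at 202595, and 89041 to 152286 in SH. Whether tissue content had a part in the results was not tested beyond the fits named here. In bulk tissue, fewer cells of a type and less RNA per cell cannot be told apart.

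Of the 39 members tested, 19 were higher and 0 lower in IH than in control at an adjusted p under 0.05 (edgeR's quasi-likelihood test, adjusted over all 7338 genes tested), against 6.08% of all genes tested that were higher and 4.85% that were lower. The median log2 fold change was 0.24 over the members and -0.02 over all genes tested. By the study's limits, a fold change above 1.5 or below 0.67 with an unadjusted p under 0.05, 4 members were higher (Creld2, Pdia4, Hsp90b1 and Pdia6, all of lumenal folding), against 1.5% of all genes tested, and 0 were lower, against 1.16%. At an unadjusted p under 0.05, 22 members were higher (15.4% of all genes tested) and 0 lower (14.4%), and DESeq2 called 19 higher (8.5%) and 0 lower (6.2%). With a log2 limit of 0.58 in place of a fold change of 1.5, Calr (0.58) is added and 5 members pass. In 18 members the lowest IH library was above the highest control library, as in 7.66% of all genes tested, and in 0 members the order was the opposite (7.48%).

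Of these 19 calls, 11 held with any 1 library left out, namely Hsp90b1, Hyou1, Creld2, Pdia6, Pdia4, Dnajc3, Calr, Ssr3, Spcs2, Sec61a2 and Sec22b. Sec63 (adjusted p = 0.0576) and Spcs3 (adjusted p = 0.0531) were not called without control 2. Without control 1 or control 4, Stt3b (largest adjusted p = 0.0517) and Ero1b (0.0626) were not called, and Stt3a was also lost without IH 2 (largest adjusted p = 0.0589). The call of Sec24b was lost without control 2, control 4 or IH 2 (largest adjusted p = 0.0685), that of Dnajb9 without any of 8 libraries (control 1, 2 or 4, IH 1, 2 or 3, SH 3 or 4, largest 0.132), and that of Tmed5 without any of these or IH 4 (largest 0.135). Without IH 3, Dad1 was called lower in IH (log2 fold change -0.27, adjusted p = 0.0460). With the choroid plexus markers as a covariate 17 members were higher (5.86% of all genes). Without the 6 libraries rich in these markers 6 of 38 were called, Hsp90b1, Hyou1, Pdia4, Dnajc3, Calr and Ssr3, where 0.654% of all genes were called in either direction, and all 19 members kept their direction with a median of 0.25 over the members.

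In SH vs. control, 17 members were higher at the same threshold, against 10.2% of all genes tested. A further 3 were lower, Dad1, Kdelr1 and Ssr2, which is 7.69% of the members against 10.5% of all genes tested. At an unadjusted p under 0.05, 21 members were higher (18.5% of all genes tested) and 6 lower (17.5%), and DESeq2 called 18 higher (12.0%) and 4 lower (11.3%). The median over the members was 0.22 and that over all genes tested 0.00. All 13 members whose SH libraries lay above every control library were called (8.76% of all genes tested), and 5 members lay below every control library, Sec13, Sec61b, Dad1, Kdelr1 and Ssr2 (10.6%). By the study's limits 1 member was higher, Tmed10-ps (1.2% of all genes tested), and 0 were lower (1.53%). IH vs. control and SH vs. control share the control libraries, so their values are given side by side and are not compared as independent results.

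The calls of 13 members in SH vs. control held with any 1 library left out, those of Ssr3, Calr, Ssr2, Sec24b, Tmed7, Kdelr1, Dnajb9, Spcs2, Sec22b, Dnajc3, Tmed4, Sec61a2 and Hyou1. Without control 2 Sec63 was lost (adjusted p = 0.050), and without control 1, control 2 or SH 2 Hsp90b1 was lost (largest adjusted p = 0.0777). Dad1 was lost without control 3 (0.0680) or SH 4 (0.0524), and Stt3b without control 1, control 4 or SH 3 (largest 0.0615). The call of Creld2 was lost without control 1, 2 or 4 or SH 1, 2 or 5 (largest 0.0979), that of Stt3a without control 1, 3 or 4 or SH 2, 3 or 4 (largest 0.0701), and that of Pdia4 without control 1, 2 or 3 or SH 1, 2, 3 or 5 (largest 0.1225). With the choroid plexus covariate 15 members were higher (9.99% of all genes) and 4 lower, with 19.6% of all genes called in either direction. Without the 6 rich libraries, which left 2 SH libraries, 0 of 38 members were called by edgeR. In that fit 0.362% of all genes were called in either direction. All 20 members kept their direction there, and the log2 fold change of Creld2 was 0.15.

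In IH vs. SH, 6 members were higher in IH, Hsp90b1, Hyou1, Pdia6, Pdia4, Kdelr1 and Kdelr2, against 1.47% of all genes tested, and 0 were lower, against 0.899%, with 2.37% of all genes called in either direction. At an unadjusted p under 0.05, 15 members were higher (8.6% of all genes tested) and 3 were lower, Tmed7, Copg2 and Tmed10-ps (7.15%), and DESeq2 called 6 higher (2.52%) and 0 lower (1.57%). All IH libraries were above all SH libraries in 7 members (2.63% of all genes tested) and below them in 0 (1.83%). By the study's limits 0 members were higher in IH (0.572%) and 1 was lower, Tmed10-ps (0.409%). The calls of Hsp90b1 and Kdelr1 held with any 1 library left out. That of Pdia4 was lost without IH 1, SH 3 or SH 4 (largest adjusted p = 0.0526), that of Pdia6 without control 2, IH 1, 2 or 3 or SH 2, 4 or 5 (largest 0.0853), that of Kdelr2 without control 1 or 2, IH 1, 3, 4 or 5 or SH 3, 4 or 5 (largest 0.104), and that of Hyou1 without any single one of the 14 (0.0507 to 0.114). A fit of IH and SH alone called 3 members higher, Hsp90b1, Pdia4 and Kdelr1, against 0.477% of all genes. The choroid plexus covariate called 5 (1.43% of all genes higher). The fit without the 6 rich libraries, which left 3 IH and 2 SH libraries, called 0 of 38 members and 0 of all genes tested. All 6 members called in the main fit kept their direction there.

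**Figure D1:**
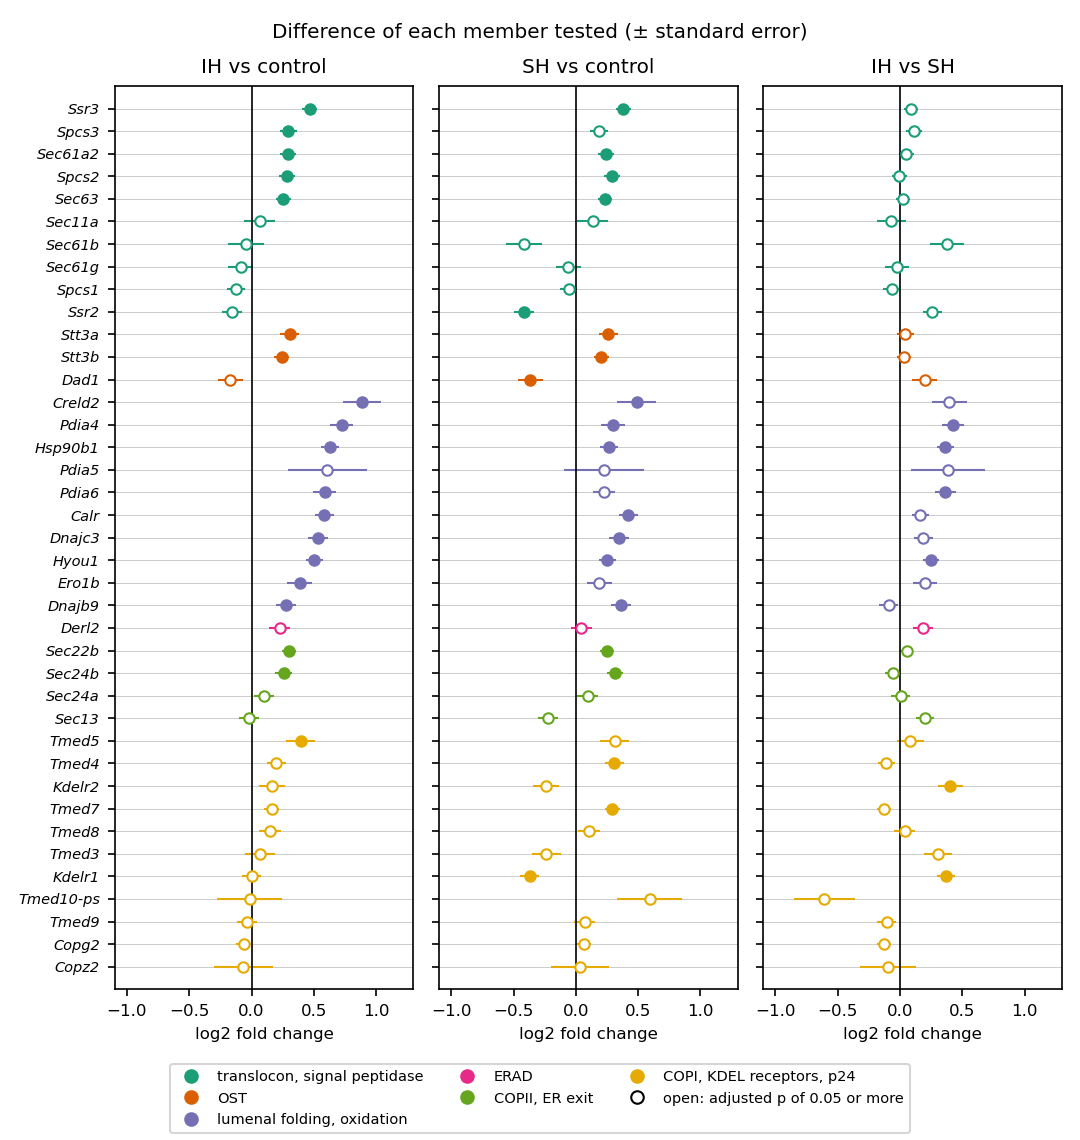
Log2 fold change (x axis) of each of the 39 members tested (y axis, by role) in IH vs. control, SH vs. control and IH vs. SH; points are edgeR estimates, bars ± 1 standard error, and open points have an adjusted p of 0.05 or more. The lumenal folding genes have the highest median of the roles in IH vs. control, 0.59, and 3 members, Dad1, Kdelr1 and Ssr2, are called lower in SH vs. control.

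Lumenal folding and oxidation genes had the largest median difference of the roles in IH vs. control. In IH vs. control 9 of the 10 were higher, with a median log2 fold change of 0.59, and in SH vs. control 7 were higher, with a median of 0.28. In IH vs. SH 4 were higher, against 1.47%, with a median of 0.31. Their group means followed the order control, SH, IH from low to high in 9 of the 10, all but Dnajb9, against 17.9% of all genes tested. The median log2 ratio of the 10 genes to their control mean was 0.45 to 0.72 in the IH libraries, 0.13 to 0.37 in the SH libraries and -0.10 to 0.05 in the control libraries, so the libraries of the groups did not overlap in it. Within groups, IH 1 and IH 3 were each the highest IH library for 5 of the 10 genes, and SH 4 was the lowest SH library for 7.

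Creld2, an ER-resident protein known to be induced by ER stress, had normalized counts of 214, 218, 268 and 212 in control, 460, 330, 521, 382 and 419 in IH, and 380, 351, 299, 225 and 345 in SH. Every IH library was above every control library, and SH overlapped both other groups. The log2 fold change was 0.89 for IH against control (SE 0.16, adjusted p = 0.00317), 0.49 for SH against control (SE 0.16, adjusted p = 0.0373) and 0.40 for IH against SH (SE 0.14, adjusted p = 0.180). The SH vs. control call of Creld2 was lost with the choroid plexus covariate (adjusted p = 0.0647). Without the 6 libraries rich in those markers the value was 0.15 (adjusted p = 0.697). Creld2 lies at chr15:88703795-88710890 on the plus strand (GRCm39, GENCODE).

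Pdia4, a protein disulfide isomerase, was counted at 690, 824, 776 and 859 in control, 1422, 1277, 1385, 1209 and 1203 in IH, and 1156, 953, 939, 828 and 953 in SH. All IH libraries were above all libraries of both other groups, while SH 4 lay within the control range. Pdia4 (chr6:47770077-47790462, minus strand) rose by 0.72 in IH vs. control (log2, SE 0.095, adjusted p = 0.000548), by 0.30 in SH relative to control (SE 0.094, adjusted p = 0.0379) and by 0.43 in IH relative to SH (SE 0.088, adjusted p = 0.0220). With the replicate number as a block the SH vs. control call was lost (adjusted p = 0.0551). It was also lost with only the 2 groups fitted (0.0524) and with the choroid plexus covariate (0.0612).

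Hsp90b1 encodes GRP94, the ER member of the HSP90 family. Its normalized counts were 5590, 6237, 6744 and 6274 in control, 10571, 9102, 10355, 8653 and 9383 in IH, and 7010, 7993, 7333, 7025 and 7985 in SH. The groups did not overlap at all, with control lowest and IH highest. The log2 fold change of Hsp90b1 (chr10:86526073-86541446, minus strand) was 0.63 for IH against control (SE 0.075, adjusted p = 0.000306), 0.27 for SH against control (SE 0.075, adjusted p = 0.0217) and 0.36 for IH against SH (SE 0.070, adjusted p = 0.0145).

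Another disulfide isomerase, Pdia6, had values of 1902, 2103, 2163 and 1992 in control, 3384, 2888, 3567, 2728 and 2745 in IH, and 2484, 2301, 2586, 2053 and 2491 in SH. IH stood above both other groups without overlap, and only SH 4 fell within the control range. Pdia6 was higher in IH vs. control (log2 fold change 0.59, SE 0.090, adjusted p = 0.00137) and in IH vs. SH (0.36, SE 0.084, adjusted p = 0.0345), and SH vs. control did not pass (0.22, SE 0.089, adjusted p = 0.0856).

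Hyou1, a nucleotide exchange factor of the main ER chaperone BiP, was counted at 2486, 2335, 2308 and 2450 in control, 3755, 3388, 3505, 3140 and 3206 in IH, and 2919, 2906, 3101, 2495 and 2860 in SH. Here too the groups did not overlap and the order was control, SH, IH, though SH 4 lay only just above the control libraries. The log2 fold change was 0.50 for IH against control (SE 0.067, adjusted p = 0.000548), 0.25 for SH against control (SE 0.067, adjusted p = 0.0164) and 0.25 for IH against SH (SE 0.063, adjusted p = 0.0483). The last call was also lost with scaling by library total (adjusted p = 0.0584), with no filter on low counts (0.0551), with filterByExpr (0.0569) and with the choroid plexus covariate (0.0569).

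Calr, the calcium-binding lectin chaperone calreticulin, had 6435, 6556, 5871 and 6700 in control, 10469, 9045, 10584, 8443 and 9384 in IH, and 9325, 8775, 8327, 7791 and 8561 in SH. Both hypoxia groups were above control in every library and overlapped each other. Calr (chr8:85567946-85573667, minus strand) rose by 0.58 in IH vs. control (log2, SE 0.076, adjusted p = 0.000548) and by 0.42 in SH relative to control (SE 0.075, adjusted p = 0.00219), and the difference of 0.16 in IH vs. SH did not pass (SE 0.070, adjusted p = 0.262). Per kb of transcript Calr and Hsp90b1 had the highest control levels of all members, with a mean normalized count of 2793 and 2195 per kb.

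The J-domain co-chaperones of BiP among the members were Dnajc3 and Dnajb9. Dnajc3 was 1195, 1515, 1350 and 1517 in control, 2162, 1938, 2054, 1958 and 1958 in IH, and 1811, 1985, 1656, 1598 and 1798 in SH, and rose by 0.53 in IH relative to control (adjusted p = 0.00130) and by 0.34 in SH relative to control (adjusted p = 0.00850). Dnajb9 was 633, 742, 753 and 726 in control, 908, 872, 937, 810 and 787 in IH, and 917, 1024, 930, 906 and 817 in SH. It was the 1 folding gene with a higher mean in SH than in IH, and rose by 0.27 in IH relative to control (adjusted p = 0.0416) and by 0.36 in SH relative to control (adjusted p = 0.00676), with a difference of -0.09 in IH vs. SH that did not pass (adjusted p = 0.640).

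Ero1b, an oxidase that recharges the disulfide isomerases, was 451, 490, 472 and 430 in control, 535, 639, 689, 545 and 606 in IH, and 548, 596, 497, 546 and 438 in SH. It was higher in IH vs. control (log2 fold change 0.39, SE 0.099, adjusted p = 0.0220) and SH overlapped both other groups (0.19 vs. control, adjusted p = 0.185). Ero1b shares 98.0% of 921 aligned bases with the transcribed pseudogene Gm18562, so its counts are uncertain. Pdia5, the lowest of the 3 disulfide isomerase members per kb, was scattered, at 47.9 to 58.0 in control, 51.3 to 97.2 in IH, and a mean of 61.6 ± 36.1 (SD) in SH, and passed in no comparison (log2 fold change 0.61 in IH vs. control, SE 0.32, adjusted p = 0.211).

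**Figure D2:**
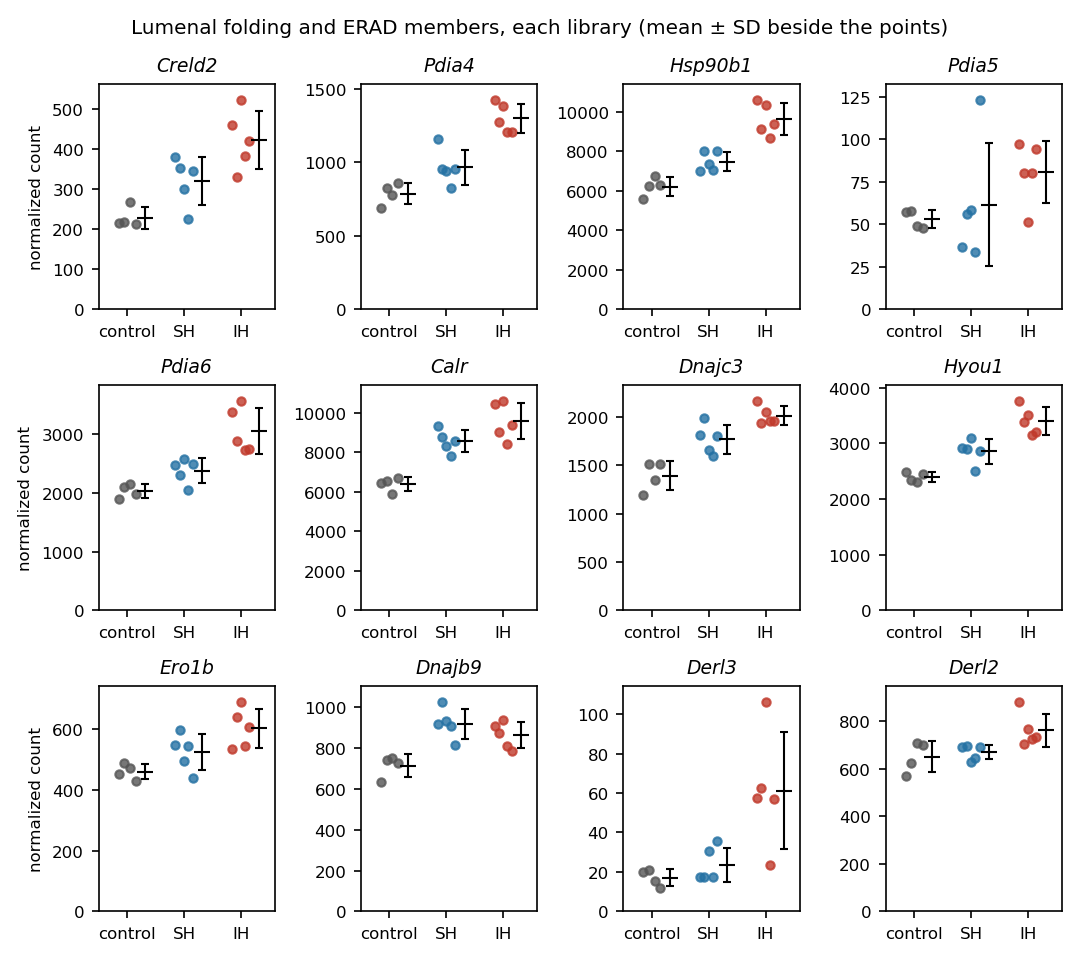
Normalized counts (y axis, from 0) of the 10 lumenal folding and oxidation genes and the 2 derlin genes in each of the 14 libraries (x axis, control, SH and IH); the bar beside the points is the mean ± SD. Hsp90b1 and Hyou1 show 3 separate groups in the order control, SH, IH, whereas the mean of Dnajb9 is higher in SH than in IH.

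The promoters of the folding genes were examined because the ER stress response element (ERSE), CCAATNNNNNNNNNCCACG, is a known binding sequence of ATF6 and XBP1 with the factor NF-Y. Promoter windows ran from 250 bases before to 50 bases after the start of each gene in the RefSeq table (GRCm38.p6), and 34 of the 40 members had one, all but Spcs3, Tmed7, Hyou1, Kdelr2, Ssr2 and Tmed10-ps. Both strands were searched. An ERSE was in the windows of 7 members, Calr, Creld2, Derl3, Dnajc3, Ero1b, Hsp90b1 and Pdia6, against 0.119% of all 32851 windows and 0.169% of the 7713 windows of deposited genes. With any base in the last position (CCAATNNNNNNNNNCCACN) Derl2 and Pdia4 were added, making 9 members against 0.365% of all windows. By role, 6 of 9 folding genes with a window and 1 of 2 derlins had an ERSE, and 0 of the members of the other roles. The related elements ERSE-II (0.0365% of all windows) and TGACGTGG (UPRE, 0.676%) were in 0 of the 34 windows. A match is a description of letters and not shown to be a bound site.

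The matches are shown on the strand that carries the element, with 20 bases on either side and both ends of the element in capitals, in the order of the log2 fold change of the tested genes in IH vs. control, with the untested Derl3 last. Pdia4 and Derl2 match only the pattern with any base at its end, so their last capital is the free position.
Creld2 (chr15:88819500-88819558, minus strand): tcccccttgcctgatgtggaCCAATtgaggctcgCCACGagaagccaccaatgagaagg
Pdia4 (chr6:47813582-47813640, plus strand): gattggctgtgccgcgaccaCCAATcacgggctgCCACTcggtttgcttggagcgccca
Pdia6 (chr12:17266471-17266529, plus strand): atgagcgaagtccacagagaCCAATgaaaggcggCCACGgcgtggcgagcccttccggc
Calr (chr8:84847055-84847113, plus strand): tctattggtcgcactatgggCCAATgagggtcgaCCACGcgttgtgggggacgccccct
Dnajc3 (chr14:118937807-118937865, plus strand): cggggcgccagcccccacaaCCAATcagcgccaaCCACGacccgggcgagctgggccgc
Ero1b (chr13:12565662-12565720, minus strand): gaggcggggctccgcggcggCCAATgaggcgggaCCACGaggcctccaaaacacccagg
Derl2 (chr11:71019451-71019509, plus strand): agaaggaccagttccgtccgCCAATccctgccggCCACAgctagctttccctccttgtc
Derl3 (chr10:75893222-75893280, minus strand): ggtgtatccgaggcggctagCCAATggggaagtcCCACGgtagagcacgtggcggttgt

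Hsp90b1 held 2 elements, 1 on each strand, so its whole window is shown on the strand of the gene, with the fixed letters of both elements in capitals (the second appears there as its reverse complement). The window of Kdelr1, which had no element of any kind and was lower in SH vs. control, is shown beside it for contrast.
Hsp90b1 (chr10:86705395-86705694, minus strand): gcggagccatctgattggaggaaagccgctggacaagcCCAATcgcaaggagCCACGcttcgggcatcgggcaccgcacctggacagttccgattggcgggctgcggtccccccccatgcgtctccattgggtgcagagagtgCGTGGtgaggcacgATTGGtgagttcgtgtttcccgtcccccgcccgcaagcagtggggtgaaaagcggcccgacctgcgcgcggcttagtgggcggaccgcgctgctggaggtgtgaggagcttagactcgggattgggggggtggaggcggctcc
Kdelr1 (chr7:45872590-45872889, plus strand): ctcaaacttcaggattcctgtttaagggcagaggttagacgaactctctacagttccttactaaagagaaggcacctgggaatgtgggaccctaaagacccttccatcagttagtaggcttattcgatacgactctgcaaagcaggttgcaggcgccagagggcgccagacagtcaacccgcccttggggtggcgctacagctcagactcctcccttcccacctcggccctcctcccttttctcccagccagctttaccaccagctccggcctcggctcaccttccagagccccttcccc

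All 6 tested genes with an ERSE were among the 19 higher in IH vs. control (median log2 fold change 0.59), 4 of the 6 were higher in SH vs. control (median 0.31), and 2 of the 6, Hsp90b1 and Pdia6, were higher in IH vs. SH (median 0.28). Among the 27 tested members with a window but no ERSE, 11 were higher in IH vs. control (median 0.20), 11 were higher and 2 lower in SH vs. control (median 0.14), and 2 were higher in IH vs. SH, Pdia4 and Kdelr1 (median 0.04). Of all genes tested, 6.08% were higher in IH vs. control, 10.2% higher and 10.5% lower in SH, and 1.47% higher in IH vs. SH, so the 2 of 27 lower in SH do not exceed the general share. Since the ERSE members were nearly all folding genes, element and role cannot be told apart in these counts.

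Derlins are membrane proteins that take part in moving misfolded proteins out of the ER. Derl3 was too low for the test, with normalized counts of 20, 21.2, 15.5 and 12 in control, 57.5, 62.3, 106, 23.3 and 57.0 in IH, and 17.5, 17.4, 30.4, 17.5 and 35.5 in SH. Every IH library was above every control library, and 4 of the 5 were above every SH library. In the fit without a filter on low counts the log2 fold change was 1.82 for IH against control (SE 0.38, adjusted p = 0.00932), 0.46 for SH against control (SE 0.39, adjusted p = 0.427) and 1.36 for IH against SH (SE 0.35, adjusted p = 0.0560). Derl2 was 570, 624, 707 and 701 in control, 879, 704, 768, 723 and 731 in IH, and 691, 696, 629, 643 and 690 in SH. All IH libraries were above all SH libraries, but no comparison passed for Derl2 (log2 fold change 0.23 for IH over control, adjusted p = 0.0885, and 0.18 for IH over SH, adjusted p = 0.264).

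Of the 10 translocon and signal peptidase genes, 5 were higher in IH vs. control, Ssr3, Spcs3, Sec61a2, Spcs2 and Sec63. In SH vs. control 4 were higher, the same genes except Spcs3, and Ssr2 was lower. As background, 6.08% of all genes tested were higher in IH, 10.2% higher in SH and 10.5% lower in SH. The share lower, 1 of 10, is near that of all genes. The medians were 0.16 in both comparisons, and 0 of 10 were called in IH vs. SH (median 0.03). Ssr3, the gamma subunit of the translocon-associated TRAP complex, was 1995, 2275, 2347 and 2263 in control, 2945, 3041, 3335, 3064 and 2972 in IH, and 2854, 2742, 2903, 2867 and 3091 in SH. Both hypoxia groups were above control without overlap, by 0.47 in IH (SE 0.059, adjusted p = 0.000512) and by 0.38 in SH (SE 0.059, adjusted p = 0.000897) on the log2 scale.

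Ssr2, the beta subunit of the same TRAP complex, was lower in SH. Its counts were 923, 966, 1053 and 880 in control, 897, 865, 990, 785 and 753 in IH, and 734, 765, 687, 715 and 681 in SH. SH was below control in every library, and IH overlapped both groups. The log2 fold change was -0.42 for SH against control (SE 0.083, adjusted p = 0.00404), -0.16 for IH against control (SE 0.083, adjusted p = 0.215) and 0.26 for IH against SH (SE 0.079, adjusted p = 0.106).

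The translocon channel is built from an alpha, a beta and a gamma subunit. Sec61a2, 1 of the alpha genes, was 1350, 1460, 1270 and 1299 in control, 1719, 1678, 1591, 1705 and 1528 in IH, and 1695, 1588, 1446, 1593 and 1626 in SH, with a log2 fold change of 0.29 for IH against control (adjusted p = 0.0108) and 0.24 for SH against control (adjusted p = 0.0164). Both calls of Sec61a2 were lost when trends with transcript length and GC content were removed (0.17, adjusted p = 0.158, and 0.10, adjusted p = 0.415). Sec61b, the beta subunit, was 282, 286, 308 and 234 in control, 249, 208, 360, 275 and 258 in IH, and 169, 207, 228, 221 and 215 in SH, with -0.42 for SH against control (SE 0.15, adjusted p = 0.0532). SH lay below control without overlap for Sec61b, yet the difference just missed the threshold, and with 1 library left out it passed without control 4, IH 2 or IH 3 (smallest adjusted p over all alternatives 0.0261). Sec61g passed in no comparison. Counts of Sec61b and Sec61g are uncertain, since a copy with 99.3% and 99.5% identity (Sec61bl and Gm65989) lies elsewhere in the annotation.

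Sec63, a membrane co-chaperone that brings BiP to the channel, was 1734, 1769, 2085 and 2041 in control, 2227 to 2307 in IH and 2183 to 2312 in SH, and rose by 0.25 and 0.23 (adjusted p = 0.0138 and 0.0134), and both calls were lost with the trends removed (0.12, adjusted p = 0.208, and 0.066, adjusted p = 0.491). Of the signal peptidase genes, Spcs2 rose by 0.29 in each hypoxia group (adjusted p = 0.0128 in IH and 0.00715 in SH) and Spcs3 by 0.29 in IH (adjusted p = 0.0141), with 0.19 in SH (adjusted p = 0.0660), and the call of Spcs3 was lost with the trends removed (0.11, adjusted p = 0.295). Spcs1 and the catalytic subunit gene Sec11a passed in no comparison.

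Of the 3 OST subunits, 2 were higher in each comparison with control and 1 was lower in SH vs. control, with the same shares of all genes tested (6.08%, 10.2% and 10.5%) as background. Stt3b, a catalytic subunit, was 1993, 2074, 2017 and 1988 in control, 2294, 2342, 2391, 2288 and 2605 in IH, and 2196, 2384, 2553, 2151 and 2353 in SH, and rose by 0.24 in IH (adjusted p = 0.0188) and by 0.21 in SH (adjusted p = 0.0247). Stt3a, the other catalytic subunit, rose by 0.31 in IH (adjusted p = 0.0204) and by 0.26 in SH (adjusted p = 0.0263), from 749 to 851 in control to 889 to 1079 in IH and 823 to 1001 in SH, and with the trends removed both calls of Stt3a were lost (0.11, adjusted p = 0.403, and 0.047, adjusted p = 0.765). Dad1, a small subunit, was 971, 987, 1202 and 992 in control, 853, 891, 1166, 809 and 901 in IH, and 831, 820, 796, 717 and 864 in SH. All SH libraries were below all control libraries, with a log2 fold change of -0.37 (SE 0.10, adjusted p = 0.0211), and IH overlapped both groups (-0.17 vs. control, adjusted p = 0.270).

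Among the COPII and ER exit genes, 2 of 4 were higher in IH vs. control and the same 2 in SH vs. control, Sec22b and Sec24b, against 6.08% and 10.2% of all genes tested. Sec22b, a SNARE of vesicles between ER and Golgi, was 1019, 1022, 1124 and 1010 in control, 1266, 1312, 1341, 1261 and 1258 in IH, and 1192, 1333, 1225, 1238 and 1219 in SH, with a log2 fold change of 0.30 for IH (adjusted p = 0.00533) and of 0.25 for SH (adjusted p = 0.00806). Sec24b, a cargo-selecting coat subunit, was 1217 to 1354 in control, 1401 to 1600 in IH and 1429 to 1744 in SH, with 0.26 (adjusted p = 0.0215) and 0.32 (adjusted p = 0.00492). Its paralog Sec24a did not pass (0.10 and 0.09). Sec13, of the outer coat, was 811 to 933 in control, 817 to 968 in IH and 647 to 807 in SH, and SH was below both other groups without overlap, at -0.22 vs. control (SE 0.079, adjusted p = 0.0563), which did not pass.

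The KDEL receptors, which bind the retrieval signal of ER chaperones, were lower in SH than in IH. Kdelr1 was 889, 802, 854 and 986 in control, 798, 826, 911, 958 and 922 in IH, and 635, 704, 731, 657 and 689 in SH. Control and IH overlapped throughout, and every SH library was below every library of both. The log2 fold change of Kdelr1 (chr7:45522196-45533781, plus strand) was -0.37 for SH against control (SE 0.077, adjusted p = 0.00544), 0.37 for IH against SH (SE 0.074, adjusted p = 0.0166) and 0.00 for IH against control (SE 0.077, adjusted p = 0.991).

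Kdelr2 was 352 to 441 in control, 460, 374, 458, 478 and 419 in IH, and 351, 379, 312, 285 and 324 in SH. IH 2 lay within the SH range and the other IH libraries above it. It was higher in IH vs. SH (0.40, SE 0.097, adjusted p = 0.0387, and 0.0757 with the replicate number as a block) and passed neither comparison with control (0.17, adjusted p = 0.283, and -0.24, adjusted p = 0.108). With Sec13, Sec61b, Tmed3, Dad1 and Ssr2, the 2 receptors made up the 7 of 39 members with the lowest mean in SH, 17.9% against 31% of all genes tested.

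Of the 11 genes of COPI, the KDEL receptors and p24, 1 was higher in IH vs. control (6.08% of all genes tested), and 2 were higher and 1 lower in SH vs. control (10.2% and 10.5%), which is close to those shares. Of the p24 cargo receptors, Tmed5 was higher in IH (0.39, adjusted p = 0.0442, and 0.0503 with filterByExpr, 0.0576 with only the 2 groups and 0.0522 with the choroid plexus covariate), and Tmed4 (0.31, adjusted p = 0.00967) and Tmed7 (0.29, adjusted p = 0.00527) in SH. Tmed7, the most abundant p24 gene here by normalized count per kb, was 2072, 2245, 2356 and 2175 in control, 2445, 2386, 2723, 2321 and 2507 in IH, and 2774, 2558, 2547, 2816 and 2862 in SH. SH was above control in every library, while IH overlapped both groups. The COPI subunit genes Copg2 and Copz2 and the receptors Tmed3, Tmed8 and Tmed9 passed in no comparison, with log2 fold changes between -0.24 and 0.30. Tmed10-ps is annotated as a processed pseudogene with 95.5% identity to Tmed10 over 687 bases, so its counts are uncertain, and its difference of 0.59 (log2) between SH and control came with high values in SH 2 and SH 3 (125 and 117, against 57.5 to 86.6 in the other SH libraries) and did not pass (adjusted p = 0.115).

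**Figure D3:**
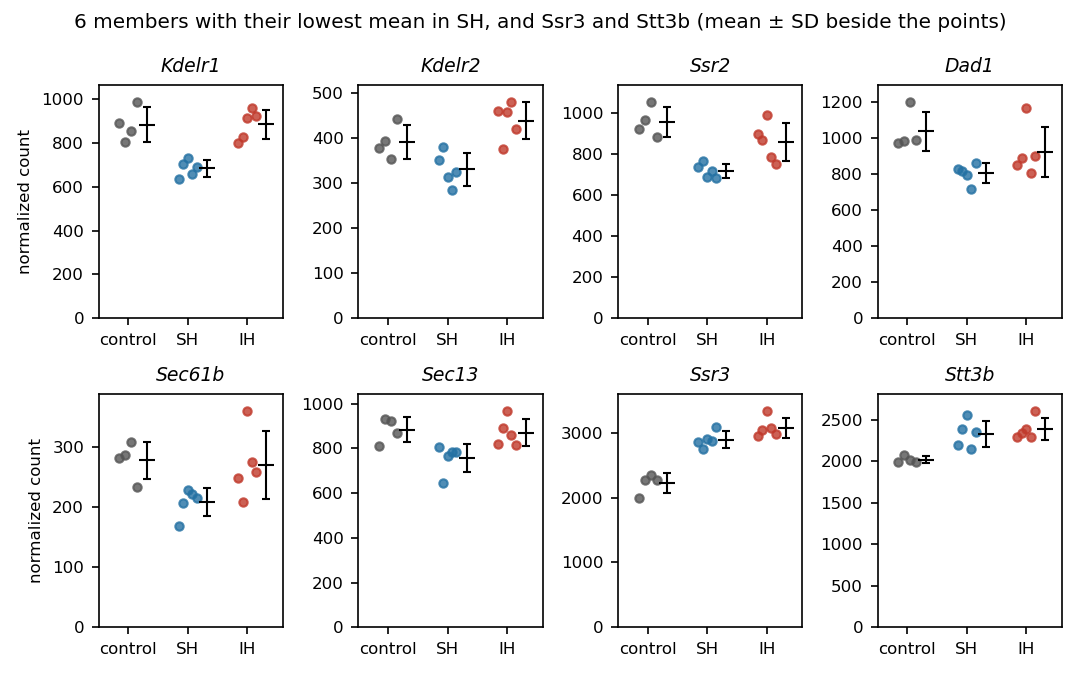
Normalized counts (y axis, from 0) of Kdelr1, Kdelr2, Ssr2, Dad1, Sec61b and Sec13, whose lowest group mean is in SH, and of Ssr3 and Stt3b for comparison, in each library (x axis, control, SH and IH), with the mean ± SD beside the points. The 5 SH libraries of Kdelr1 lie between 635 and 731, below all control and IH libraries, whereas those of Ssr3 lie between 2742 and 3091, above control.

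**Figure D4:**
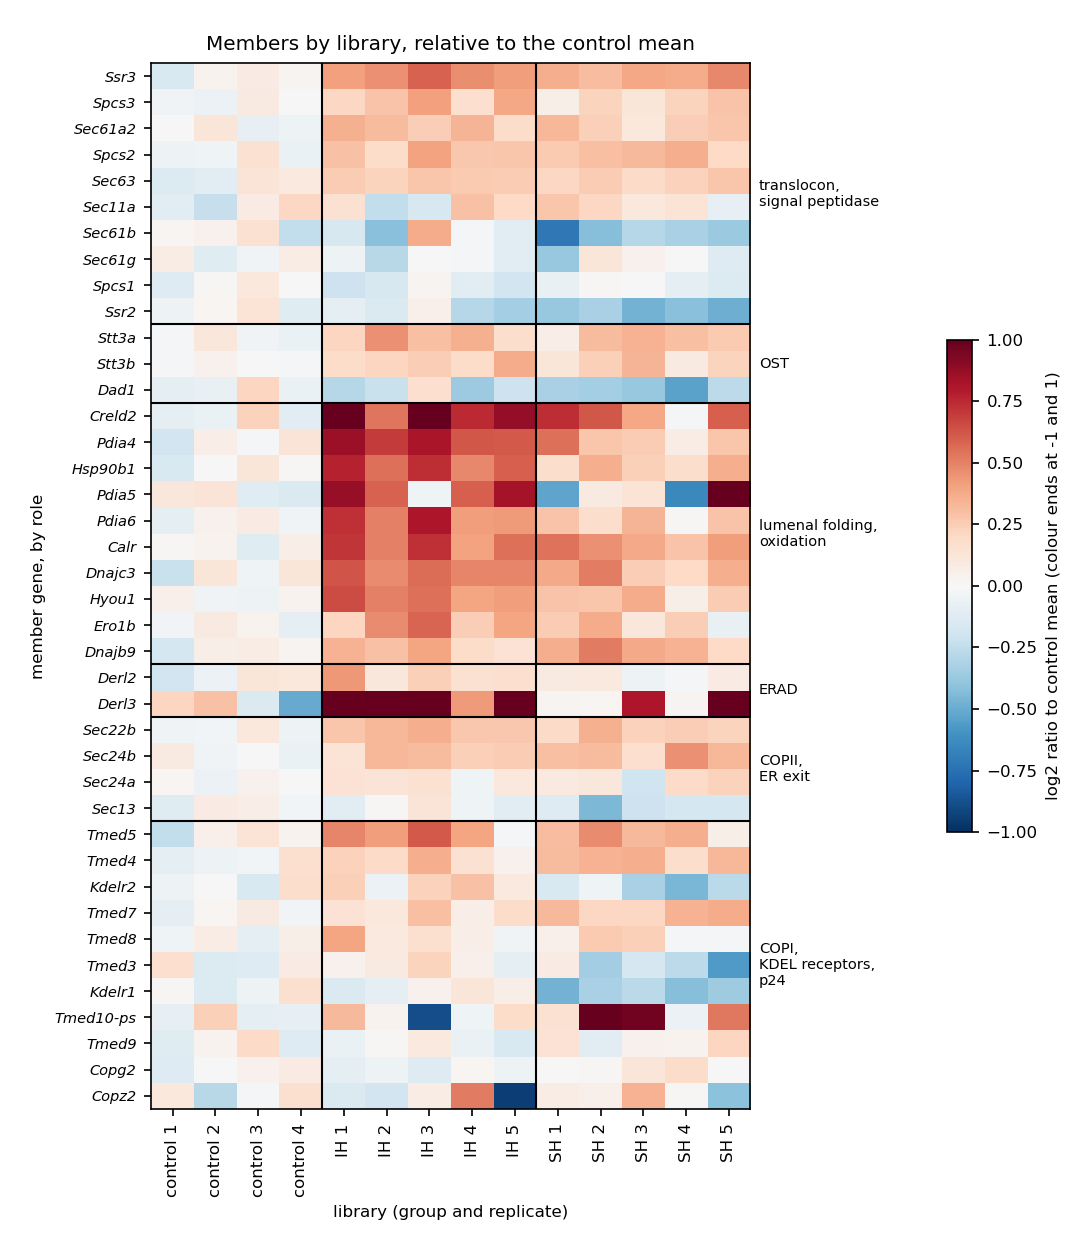
Log2 ratio of each member's normalized count to its control mean (colour, ending at -1 and 1) by library (x axis) and member (y axis, grouped by role). Most lumenal folding genes are red in IH 1 to IH 5 and paler in the SH libraries, with the exceptions of Dnajb9 and of Pdia5 in IH 3 and SH 5, and Kdelr1, Ssr2, Dad1 and Sec61b are blue in the SH libraries.

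Genes of the same pathway outside the symbol rule were counted from lists by function. Of 9 further ER chaperones tested (23 listed), 7 were higher in IH and 7 in SH than in control, and 3 in IH than in SH, with 0 lower in any of them, where 6.08%, 10.2% and 1.47% of all genes tested were higher. Hspa5, which encodes BiP, had 3803, 4601, 4933 and 4746 in control, 9758, 7599, 9141, 7839 and 7667 in IH, and 6704, 5634, 6061, 5005 and 6126 in SH, 3 groups without overlap. Its log2 fold change was 0.89 for IH against control (adjusted p = 0.000244), 0.39 for SH against control (adjusted p = 0.0154) and 0.51 for IH against SH (adjusted p = 0.0124). For Dnajb11, a J-domain partner of BiP, the 3 values were 0.50, 0.21 and 0.29, all called, and Pdia3 was called in IH vs. control (0.62) and IH vs. SH (0.46) and not in SH vs. control (0.17). Manf and Sdf2l1 were called against control in both groups (0.72 and 0.42 for Manf, 1.20 and 0.63 for Sdf2l1) and not in IH vs. SH (0.30 and 0.57). By RT-qPCR, however, the paper reported no statistically significant effect of exposure for Hspa5, Manf or Sdf2l1. There each gene had its lowest mean in SH, with the highest in IH for Hspa5 and Manf and in control for Sdf2l1. The methods describe the control RNA of that assay as extracted in the experiment itself, without naming the preliminary one.

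Among the UPR sensors and transcription factors, 10 of 20 listed genes were tested, and the sensors Ern1, Eif2ak3 and Atf6 and the factor Ddit3 were not analysed here. Xbp1, which encodes a UPR transcription factor, was 1220 to 1399 in control, 1432 to 1950 in IH and 1211 to 1457 in SH, and was higher in IH vs. control (0.37, adjusted p = 0.0147) and also in IH compared with SH (0.35, adjusted p = 0.0346). Atf4, the factor of the amino acid and PERK branch, was 2120 to 2507 in control, 2015 to 2351 in IH and 1783 to 1858 in SH. All SH libraries of Atf4 were below those of both other groups, at -0.35 vs. control (adjusted p = 0.00169) and 0.27 for IH against SH (adjusted p = 0.0220). Mbtps2, the site-2 protease that processes ATF6, was higher in SH vs. control (0.55, adjusted p = 0.00113) and lower in IH vs. SH (-0.35, adjusted p = 0.0380). In all, 2 of the 10 were higher in IH vs. control and 0 lower, 2 higher and 3 lower in SH vs. control, and 2 higher and 1 lower in IH vs. SH. Of all genes tested, 6.08% were higher and 4.85% lower in IH vs. control, 10.2% and 10.5% in SH vs. control, and 1.47% and 0.899% in IH vs. SH.

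Of 8 genes of signal recognition and EMC insertion tested, 0 were called in IH vs. control and 2 in SH vs. control (Mmgt1 at 0.25 and Ncln at -0.27). Of 18 genes of N-glycan precursor synthesis and OST accessory subunits, Magt1 was higher in both groups (0.70, adjusted p = 0.00379, and 0.46, adjusted p = 0.0190), Alg10b higher in SH (0.26) and Ost4 lower in IH (-0.34). Of 10 partners of ER-associated degradation, 2 were higher in IH vs. control, and 4 were higher and 2 lower in SH vs. control, among them the membrane ubiquitin ligases Rnf139 (0.50, adjusted p = 0.00267) and Marchf6 (0.26, adjusted p = 0.00371). Of 20 ER-Golgi tethers, SNAREs and cargo receptors, 1 was higher in IH vs. control, and 6 were higher and 3 lower in SH vs. control, where the paralogous GTPases Rab1a and Rab1b differed in sign (0.27 and -0.30). In IH vs. SH 0 genes of these 4 lists were called. Of all genes tested, 6.08% were higher and 4.85% lower in IH vs. control, 10.2% and 10.5% were so in SH vs. control, and 2.37% were called in IH vs. SH. With 8 to 20 genes a list, the counts of 1 gene, and the 2 of 18 N-glycan genes higher in SH, lie near such shares and are not results about the lists.

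Fold changes in these libraries varied with transcript length and GC content. Over 7293 genes tested that have both, which share the same libraries, Spearman's rho of the log2 fold change with length was 0.26 for IH against control, 0.30 for SH against control and -0.09 for IH against SH, and with GC content -0.45, -0.53 and 0.17. Of the 27 members with transcripts of 2 kb or more, 18 were higher in IH vs. control and 15 in SH vs. control, where 424 and 687 of all 5682 genes of that length were higher. Of the 12 shorter members, 1 (Creld2) and 2 (Tmed7 and Creld2) were higher, where 21 and 56 of all 1611 shorter genes were. When the trends of each library with length and GC content were removed, 12 members were higher in IH vs. control, against 2.86% of all genes tested, 11 of them among the 19 and Tmed7 added. In SH vs. control 7 members remained higher (3.09%), all among the 17, and Dad1, Kdelr1 and Ssr2 were again lower (3.19%). The same 6 members were higher in IH vs. SH (1.32%). Apart from the calls already given as lost, the removal ended those of Tmed5 (0.13), Dnajb9 (0.12), Ero1b (0.26) and Sec24b (0.23) in IH vs. control. It also ended, for SH against control, those of Hsp90b1 (0.14), Pdia4 (0.17), Dnajc3 (0.18), Dnajb9 (0.19), Stt3b (0.17), Sec22b (0.11) and Tmed4 (0.23).

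Of the 10 folding genes, 7 were, with the trends removed, higher in IH vs. control with a median of 0.55, against 2.86% of all genes tested. In SH vs. control 3 were higher with a median of 0.18 (against 3.09%), and in IH vs. SH 4 with a median of 0.30 (against 1.32%). For Hsp90b1 the log2 fold change went from 0.63 to 0.52 for IH against control (adjusted p = 0.000416) and from 0.27 to 0.14 for SH against control (adjusted p = 0.179). For Creld2 it went from 0.89 to 1.00 and from 0.49 to 0.64 (adjusted p = 0.00145 and 0.0174). After removal of the trends, 2 of 10 translocon and signal peptidase genes, Ssr3 and Spcs2, and 1 of 3 OST subunits were higher in IH vs. control. So were 1 of 4 COPII genes and 1 of 11 COPI, KDEL receptor and p24 genes, with the same 2.86% of all genes as background.

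**Figure D5:**
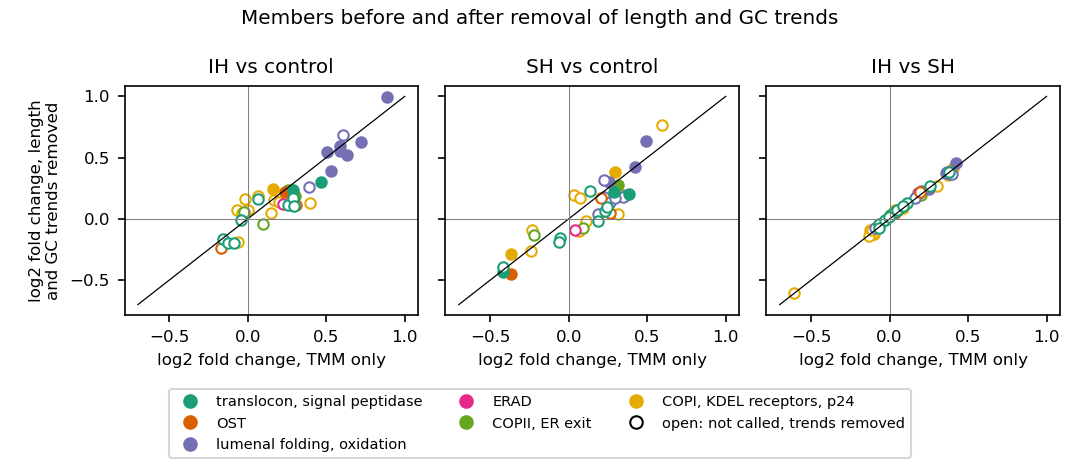
Log2 fold change of the 39 members before (x axis) and after (y axis) removal of the trends with transcript length and GC content, in each comparison; the diagonal marks equal values, colours mark roles, and open points were not called after removal. Most members, folding genes among them, fall below the diagonal in both comparisons with control, for example Hsp90b1 from 0.63 to 0.52 in IH vs. control, and the points lie close to it in IH vs. SH.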

How the data were processed

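RNA-seq libraries of hippocampus from 4 control, 5 IH and 5 SH mice were analysed from 1 table of the series. The authors trimmed reads (fastp 0.23.4), aligned them to GRCm39 (HISAT2 2.2.1) and deposited estimated counts per gene from StringTie 2.2.1, as the submitters' processing notes and methods give it. The authors describe keeping protein-coding genes above a count limit that differed from control in their processed signal, by the same group labels (the table also holds Tmed10-ps, annotated as a pseudogene in GENCODE), so adjusted p-values hold within that selection. In the table as deposited, 418 genes had a group mean under 40 counts. Values of 10 genes that were not whole were rounded.

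Genes with a mean of at least 40 counts in every group were fitted in edgeR 4.0.16 (R 4.3.3, limma 3.58.1) with TMM scaling and a quasi-likelihood test over all 14 libraries, and p-values were adjusted by Benjamini-Hochberg over the 7338 genes tested, with a threshold of 0.05. Standard errors were derived from the fold change and its F statistic. Nothing but the labels says that samples are separate, so p-values measure the spread between these samples. Replicate pairs differed beyond sampling noise (chi-square per degree of freedom at least 8.96 over 26 pairs). Symbols were matched to GENCODE (7707 directly, 1 by synonym, 48 not) for locations, length and GC content.

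The members, roles and lists were chosen with earlier results of these data known. Named in the text were, in each comparison, the 12 called members with the largest change, in each role the 2 with the highest mean normalized count, the 3 genes of each further pathway list with the smallest p, fixed UPR genes, and any member of a count of 5 or fewer. Other members were given for their role, chosen after their values were seen. Alternatives were DESeq2 1.42.0, 2 other scalings, 2 other filters, a block for the replicate number, a fit of only 2 groups, offsets that remove length and GC trends, a choroid plexus covariate, the study's limits (fold above 1.5 or below 0.67, unadjusted p under 0.05) and each library left out. The fit without the 6 libraries with a summed choroid plexus marker count above 20000 and the study's other limit, a log2 fold change beyond 0.58, were chosen after seeing the data.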

Additional observations from a re-analysis of the deposited data

Results flagged for a closer look

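In 5 of 60 groups over 20 members, 1 library stood apart from the rest of its group by Dixon's criterion, which chance meets in about 1 in 20 groups. Control 3 was high for Creld2 (268, nearest 218), for Dad1 (1202, nearest 992) and for Sec22b (1124, nearest 1022). IH 3 was high for Dad1 (1166, nearest 901), and SH 4 was low for Tmed4 (1344, nearest 1482).

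The responses to IH and SH differed in 6 members by edgeR's test of the difference between the hypoxia groups. All were higher in IH, against 1.47% of all genes tested. The control libraries cancel in the fold change of this test but enter the estimate of the spread. The log2 fold change in IH vs. SH was 0.36 for Hsp90b1 (adjusted p = 0.0145), 0.25 for Hyou1 (0.0483), 0.36 for Pdia6 (0.0345), 0.43 for Pdia4 (0.0220), 0.37 for Kdelr1 (0.0166) and 0.40 for Kdelr2 (0.0387). Only the calls of Hsp90b1 and Kdelr1 held with any 1 library left out, and that of Hyou1 was lost without any single one of the 14. In the 4 folding genes both hypoxia groups had means above control, whereas in both KDEL receptors the SH mean was below control.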

How the results depend on the processing

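With length and GC trends removed, 12 members were called in IH vs. control (median 0.15) and 10 in SH vs. control (median 0.11), against 5.83% and 6.28% of all genes. By the study's limits 4, 1 and 1 members passed in IH vs. control, SH vs. control and IH vs. SH, the last 2 being Tmed10-ps, which edgeR's adjusted p did not call, and with the study's log2 limit of 0.58 these were 5, 1 and 1. Without the libraries rich in choroid plexus markers 6, 0 and 0 were called, with fewer samples in the fit, against 0.654%, 0.362% and 0% of all genes. A fit of IH and SH alone called 3, against 0.872% of all genes. The cause of the other changes was not tested. With 1 library left out, the members called ranged from 13 to 19 in IH vs. control, 15 to 22 in SH vs. control and 2 to 5 in IH vs. SH, and the medians from 0.21 to 0.26, 0.19 to 0.23 and 0.056 to 0.086. The share of all genes called ranged from 5.26% to 13.3%, 12.4% to 23.8% and 1.2% to 2.43% in the same fits. The count in IH vs. SH fell by over 1.5 times without control 2 (3), IH 1 (2), IH 3 (3), SH 3 (3), SH 4 (2) or SH 5 (3). Of 720 alternative values of the 30 named results, 612 kept direction and side of the threshold, 108 kept the direction but not the call, and 0 reversed.

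With the replicate number as a block, 19 members were called in IH vs. control (median 0.23), 20 in SH vs. control (median 0.22) and 5 in IH vs. SH (median 0.08). Of all genes tested, 10.1%, 19.7% and 2.02% were called in that fit. Same-numbered samples correlated between -0.30 and 0.46, over 0.1 in 6 of 13 pairs, so the numbers were not taken as pairing the samples.

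Derl3, Pdia5 and Tmed10-ps had the lowest mean counts of the members in control.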
